A study of Homo sapiens with 12 samples.

Results

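The chromosome 19 microRNA cluster, C19MC, was followed across 12 expression arrays of Ishikawa cells, a human endometrial adenocarcinoma cell line. Its members were chosen by gene symbol: MIR498, MIR512, MIR515 to MIR519 and MIR520 to MIR527, with any letter or number suffix. The platform annotation named 40 such genes among the 14884 genes it named in all. The annotation gave these symbols to 43 probe sets. A gene with more than 1 probe set was represented by the one selected on the highest mean over the 12 arrays. All levels below are therefore given as a description, with no test. The 40 members were matched by gene identifier to RefSeq genes of the GRCh38.p14 assembly. All lie on chromosome 19 between positions 53669157 and 53762430, a span of 93.3 kb. A further 3 RefSeq genes carried a symbol of the same form but were not named by the annotation (MIR512-1, MIR515-2 and MIR520B). They were not analysed under those symbols.

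The arrays fall into 4 groups of 3. Cells labelled control and cells labelled shMOF, a short hairpin RNA against the histone acetyltransferase MOF (gene symbol KAT8), were each profiled under conditions labelled ERα(-) and ERα(+), the oestrogen receptor encoded by ESR1. The labels do not say how the ERα(-) and ERα(+) conditions were made, whether control cells carried a control hairpin, how many clones were used or whether replicates were separate cultures. The p-values therefore cover the scatter among the deposited arrays and no more, and that scatter may be technical. The study's title concerns regulation between MOF and ERα in endometrial cancer, and the comparisons below ask whether the cluster differed with either label.

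C19MC is a primate-specific array of microRNA genes that lie close together on one strand and are made from long shared primary transcripts. It is known for expression in the placenta, mainly from the paternal allele, and for being silent in most adult tissues. Each hairpin is cut into a 5p and a 3p mature microRNA, and the seed, bases 2 to 8 of the mature strand, is the main determinant of which messenger RNAs it represses. Total RNA was hybridised here, so a probe set on a hairpin can report a primary transcript as well as the hairpin, and the mature microRNA was not measured separately.

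RefSeq mature sequences (GRCh38.p14) were found for 39 of the 40 members: 71 entries, 51 distinct sequences and 32 seeds. The 4 genes whose 3p strand carries the seed AAGUGCU, which the embryonic miR-302 and miR-372 families also carry, include the members with the smallest p-values below. Their hairpins are shown 5′ to 3′ with the 3p mature strand in capitals, because closely related sequences gave different values on the arrays:
MIR520E: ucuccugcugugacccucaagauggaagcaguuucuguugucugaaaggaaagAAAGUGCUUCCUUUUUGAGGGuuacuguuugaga
MIR520A: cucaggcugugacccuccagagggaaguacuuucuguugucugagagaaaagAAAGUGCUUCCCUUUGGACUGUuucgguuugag
MIR520C: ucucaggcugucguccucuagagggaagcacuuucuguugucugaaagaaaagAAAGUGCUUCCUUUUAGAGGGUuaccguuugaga
MIR520D: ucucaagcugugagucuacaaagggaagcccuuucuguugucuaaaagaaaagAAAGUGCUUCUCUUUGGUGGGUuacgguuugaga
They lie on the plus strand at chr19:53675711-53675797 (MIR520E), chr19:53690881-53690965 (MIR520A), chr19:53707453-53707539 (MIR520C) and chr19:53720096-53720182 (MIR520D). MIR520E and MIR520A share 81.6% of aligned bases, and MIR520E and MIR520C share 87.4%.

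The other members described below are shown by a mature strand with the seed in capitals, one line for each family, so that members with the same seed can be recognised:
miR-512-3p (MIR512-2): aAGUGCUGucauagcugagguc
miR-515-3p (MIR515-1): gAGUGCCUucuuuuggagcguu
miR-516b-5p (MIR516B1 and MIR516B2): aUCUGGAGguaagaagcacuuu
miR-517a-3p and miR-517b-3p (MIR517A and MIR517B): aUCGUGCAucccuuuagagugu
miR-517c-3p (MIR517C): aUCGUGCAuccuuuuagagugu
miR-518a-3p (MIR518A1 and MIR518A2): gAAAGCGCuucccuuugcugga
miR-518b (MIR518B): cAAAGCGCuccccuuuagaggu
miR-519a-3p (MIR519A1 and MIR519A2): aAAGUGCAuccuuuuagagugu
miR-519b-3p (MIR519B): aAAGUGCAuccuuuuagagguu
miR-519c-3p (MIR519C): aAAGUGCAucuuuuuagaggau
miR-520f-3p (MIR520F): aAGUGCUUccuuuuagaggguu
miR-520g-3p (MIR520G): aCAAAGUGcuucccuuuagagugu
miR-520h (MIR520H): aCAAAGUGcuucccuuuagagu
miR-521 (MIR521-1 and MIR521-2): aACGCACUucccuuuagagugu
miR-522-5p (MIR522, and the same 5p strand in MIR518E, MIR519A1, MIR519B, MIR519C and MIR523): cUCUAGAGggaagcgcuuucug
miR-518f-5p (MIR518F): cUCUAGAGggaagcacuuucuc
The seed UCUAGAG was the most widely shared, carried by the 5p strand of 11 members, and AAAGCGC was next with 6. The seed AAGUGCA was carried by 4 members of the miR-519 group, as was AAGUGCU by the 4 genes above. The 3p seed GCUUCCU was common to MIR516A1, MIR516A2, MIR516B1 and MIR516B2.

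The median log2 value of an array was between 4.53 and 4.59. The targeted gene did not follow its label: KAT8 was at a log2 level of 6.77 ± 0.10 (SD, n = 3) for control and 6.75 ± 0.03 for shMOF under ERα(-), then 6.74 ± 0.12 for control and 6.78 ± 0.21 for shMOF under ERα(+). ESR1 was at 4.28 ± 0.15 in control ERα(-) and 4.46 ± 0.17 in control ERα(+), a log2 difference of 0.18 ± 0.12 (SE, adjusted p = 0.521, limma). In the shMOF arrays it was at 4.42 ± 0.09 under ERα(-) and 4.27 ± 0.01 under ERα(+), a difference of -0.15 ± 0.12. Every direction below is thus a direction between labelled arrays. The 8 measured markers of endometrial epithelium were all above the median of the named genes, led by EPCAM at 11.53 and PAX8 at 10.71. Of the measured fibroblast and immune markers, 3 each, none reached that median.

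The members lay at the dim end of the named genes. Their means over the 12 arrays ran from 1.28 to 5.12 with a median of 2.92, on a log2 intensity scale. Of the 40 members, 35 were below the 25th percentile of all named genes, 4.22, and 0 reached the median, 5.66. This is 87.5% of the members, against 59.4% of the 1032 other microRNA genes that the annotation names and 24.99% of all named genes. Brightness depends on the probes as well as on the RNA, so these percentiles place each probe set on the array and do not order the members by expression.

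MIR518B was the brightest, at a percentile of 40.98. Its log2 values were 5.21, 5.19 and 4.76 for control and 5.26, 5.03 and 4.94 for shMOF under ERα(-), then 5.22, 5.07 and 5.34 for control and 5.50, 5.12 and 4.85 for shMOF under ERα(+). All 4 groups overlapped. MIR512-2 followed at a mean of 4.58, MIR520E at 4.52, MIR521-2 at 4.50 and MIR518A2 at 4.40. These 5 were the members above the 25th percentile, and MIR520G, at 4.22, lay just below it at a percentile of 24.87.

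MIR521-2 had 4.45, 4.48 and 4.65 for control and 4.91, 4.36 and 4.54 for shMOF under ERα(-), then 4.45, 4.80 and 4.13 for control and 4.67, 4.17 and 4.41 for shMOF under ERα(+). MIR518A2 had 4.38, 4.58 and 4.57, then 4.50, 4.05 and 4.19, then 4.66, 4.36 and 4.43, and then 4.36, 4.53 and 4.17 in the same order of groups. For both genes the groups overlapped in each comparison. The 4 dimmest members were MIR517C at 1.45, MIR519B at 1.44, MIR519C at 1.36 and MIR518F at 1.28, none above a percentile of 0.41. MIR519B ran from 1.05 to 1.76 and MIR518F from 1.02 to 1.63 over the 12 arrays, and every group of each gene overlapped every other. MIR519B, MIR519C and MIR518F carry the 5p seed UCUAGAG shown above.

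**Figure D1:**
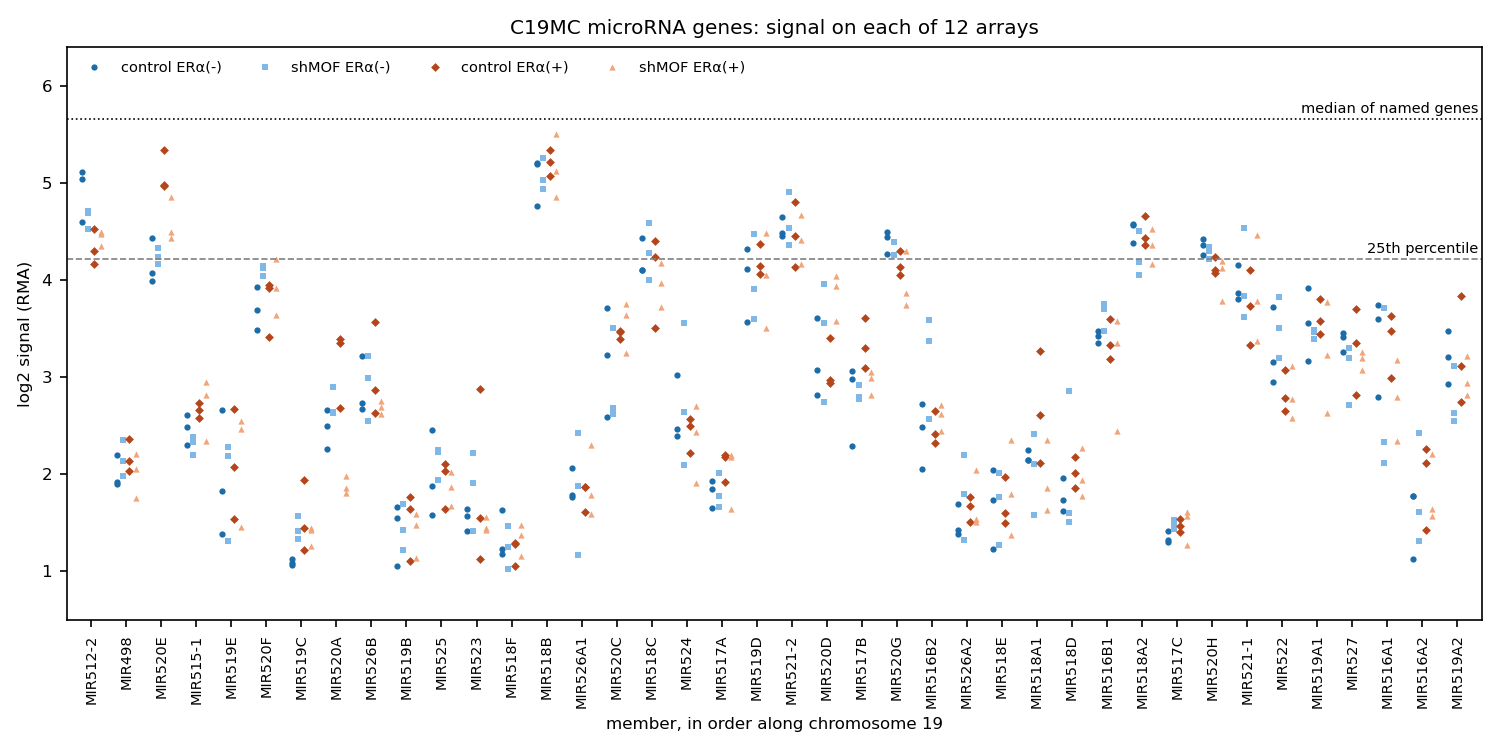
Log2 level of the 40 cluster members (vertical axis) in their order along chromosome 19 (horizontal axis), with 1 point for each of the 12 arrays, coloured by labelled group. The dashed line is the 25th percentile of the named genes (4.22) and the dotted line their median (5.66): no member's mean reaches the median, and 35 of 40 lie below the 25th percentile.

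Over the 40 members the correlation of mean level with start position was 0.0447. Hairpins were available for 37 members, with GC contents from 39.3% to 54.1% and a median of 44.7%. Level and hairpin GC correlated at 0.236 over these 37 members, against 0.609 over 847 other microRNA genes, whose GC ranged from 21.1% to 80%. Among the 400 other microRNA genes within the members' GC range the correlation was 0.286, and their levels had quartiles of 2.08, 3.26 and 4.41. The members' median of 2.92 lay within those quartiles. These correlations are descriptions across genes of the same arrays, and the part of base composition in the low levels was not tested.

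**Figure D2:**
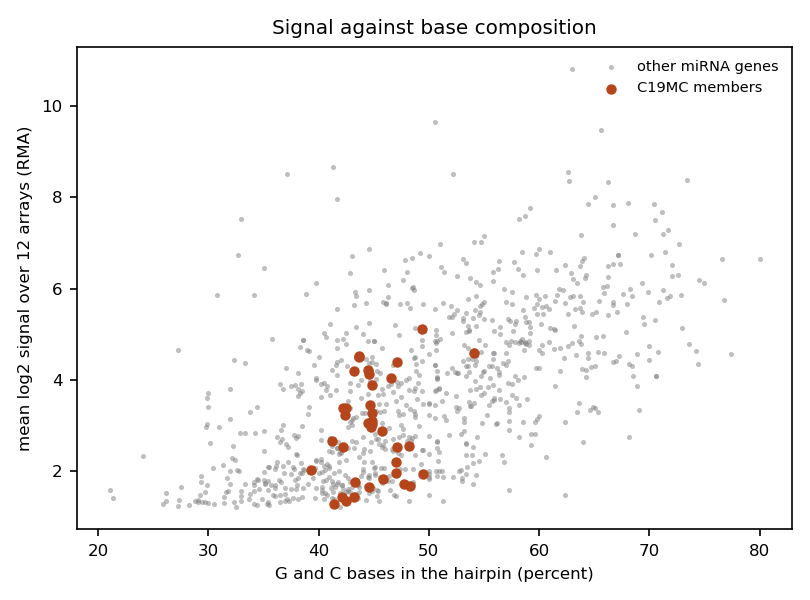
Mean log2 level over the 12 arrays (vertical axis) against GC percent of the RefSeq hairpin (horizontal axis), for 37 cluster members and 847 other microRNA genes. Members span 39.3% to 54.1% GC and stay among other microRNA genes of like GC.

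Near-identical hairpins did not give equal values. MIR516A1 and MIR516A2 share 98.89% of aligned hairpin bases, and their means were 3.06 and 1.77. MIR518A1 and MIR518A2 share 95.4% and were at 2.21 and 4.40. By contrast, MIR520G and MIR520H, which share 96.7% and lie 20346 bases apart, were at 4.22 and 4.20. Probe sequences were not used here, so whether such pairs share probes is not known. The symbols MIR512-2 and MIR515-1 were each given to a pair of probe sets with identical values on all arrays, counted once. The 2 probe sets given the symbol MIR519A2 had means of 2.35 and 3.05 and differed by up to 1.20 on an array. Numbers of the chosen probe sets rose with position on the chromosome. By number, the dimmer MIR519A2 set falls between those of MIR518F and MIR518B. The unused MIR515-1 set falls between those of MIR520F and MIR519C. Which locus these extra sets cover was not tested.

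Replicates of the members were more scattered than those of most genes. The median within-group SD was 0.30 for the members, 0.25 for other microRNA genes and 0.19 for all named genes. The median 95% interval of a 2-group difference accordingly had a half-width of 0.45 for members and 0.33 for all genes, so a typical member had to differ by about that much on the log2 scale to be told from 0 even without adjustment. The mean over the 40 members, array by array, was 2.97, 2.87 and 2.79 for control and 2.98, 2.84 and 2.92 for shMOF under ERα(-), then 3.02, 2.95 and 2.92 for control and 2.85, 2.77 and 2.90 for shMOF under ERα(+). The groups overlapped in every comparison except shMOF against control under ERα(+), where all 3 shMOF arrays were below all 3 control arrays. The separation was narrow, with 2.919 in control ERα(+) replicate 3 and 2.903 in shMOF ERα(+) replicate 3. MIR520A was at 2.683 and 1.813 on these arrays, a difference large enough by itself to set the order of their means. Other lists separated the same way in that comparison: the DLK1-MEG3 locus list (3.36 to 3.42 in control, 3.24 to 3.30 in shMOF arrays), the miR-371 to miR-373 genes, the reported targets, the protein-coding neighbours and the endometrial markers. The other microRNA genes, with means between 3.76 and 3.82, did not. Neither did the 3 measured C19MC genes outside the naming rule (2.562 to 2.917 in control, 2.415 to 3.018 in shMOF arrays). The lists of epithelial and common microRNA genes, of microRNA processing genes, and of trophoblast, fibroblast and immune markers also overlapped, as did all named genes.

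No member was called in any comparison at a Benjamini-Hochberg adjusted p below 0.05 (limma), and neither was any of the other genes: the share called over all 14884 genes was 0% in each of the 5. What follows gives the members' values and their unadjusted p-values, read against the share of all genes that passed the same level. The comparisons share arrays in pairs, so their results are not independent of each other. Over the 4 comparisons of 2 groups, 26 of the 40 members had an unadjusted p below 0.05 in none, 10 in 1 and 4 in more than 1. The share with such a p in at least 1 was 35% of the members, 29.9% of other microRNA genes and 28.3% of all genes, and the share in more than 1 was 10%, 12.6% and 11.1%.

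The genes of the AAGUGCU seed are given first because they hold the smallest p-values, which is no test of the seed. MIR520A was at log2 values of 2.66, 2.26 and 2.50 in control ERα(-) arrays. It was at 2.63, 2.64 and 2.90 in shMOF ERα(-) arrays. Under ERα(+) it was at 3.39, 3.35 and 2.68 for control and at 1.86, 1.98 and 1.81 for shMOF. The shMOF ERα(+) arrays were the 3 lowest of all 12. The group means were 2.47 ± 0.20, 2.72 ± 0.15, 3.14 ± 0.40 and 1.89 ± 0.09 (SD, n = 3) in that order. Even its brightest array lay below the 25th percentile of the named genes, 4.22.

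MIR520E, whose hairpin lies 15170 bases before that of MIR520A by start position, was at 4.43, 4.07 and 3.99 in control ERα(-) arrays. It was at 4.17, 4.33 and 4.24 in shMOF ERα(-) arrays. Under ERα(+) it was at 4.97, 4.98 and 5.34 for control and at 4.43, 4.49 and 4.86 for shMOF. The control ERα(+) arrays were the 3 highest of all 12. The group means were 4.16 ± 0.23, 4.25 ± 0.08, 5.10 ± 0.21 and 4.59 ± 0.23.

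MIR520C, reported as a regulator of the adhesion receptor gene CD44, was at 3.71, 3.23 and 2.59 for control and 3.51, 2.62 and 2.68 for shMOF under ERα(-), then 3.39, 3.46 and 3.48 for control and 3.75, 3.64 and 3.25 for shMOF under ERα(+). MIR520D was at 3.61, 3.07 and 2.82, then 2.74, 3.56 and 3.96, then 3.40, 2.97 and 2.94, and then 4.04, 3.94 and 3.58 in the same order. The groups of MIR520C overlapped in every comparison. Those of MIR520D overlapped except that shMOF was above control under ERα(+), the condition in which MIR520A and MIR520E were below control.

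**Figure D3:**
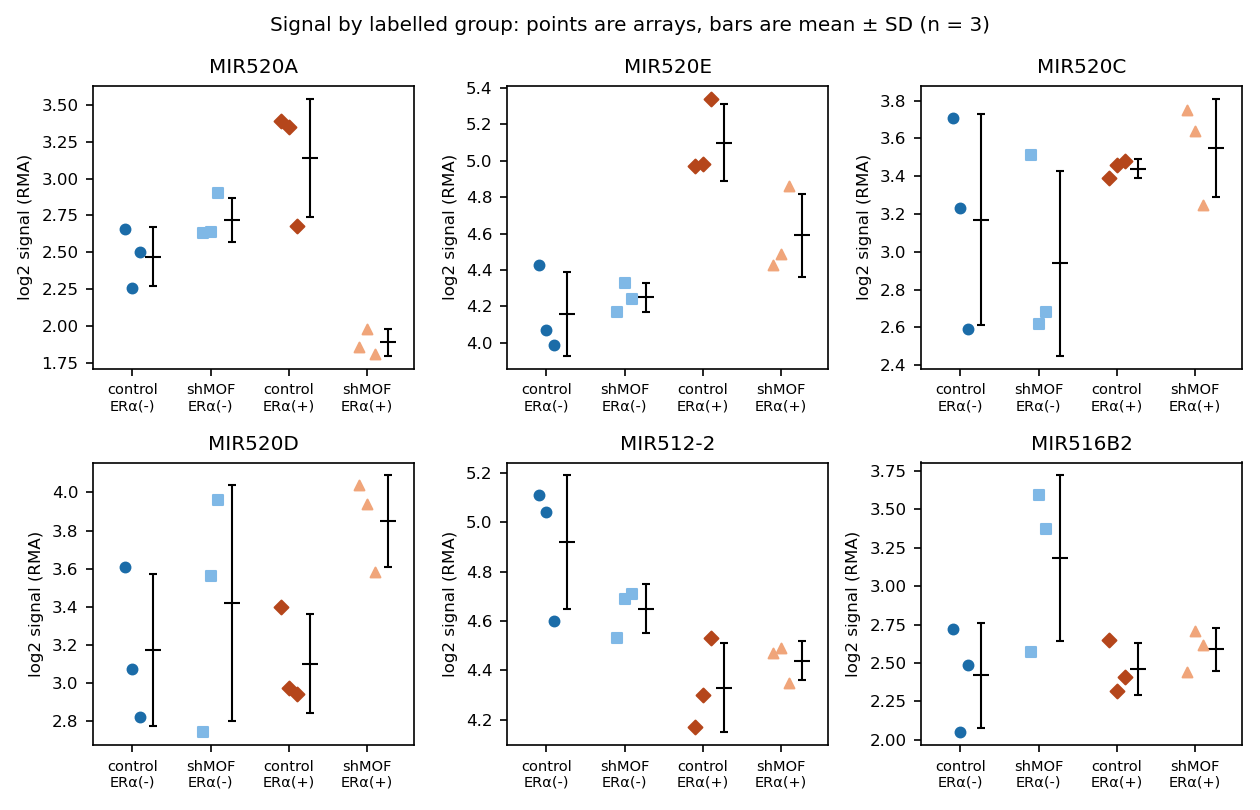
Log2 level of MIR520A, MIR520E, MIR520C, MIR520D, MIR512-2 and MIR516B2 (vertical axes) in the 4 labelled groups (horizontal axes), with 1 point for each array and the mean ± SD of 3 arrays. MIR520A is lowest in shMOF ERα(+) at 1.89 ± 0.09, and MIR520E is highest in control ERα(+) at 5.10 ± 0.21.

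Under ERα(-), the median log2 difference of the members between shMOF and control arrays was 0.05, against -0.0026 over all genes, with a range of -0.66 to 0.76, and 25 of the 40 members were above 0. An unadjusted p below 0.05 was seen for 3 members, 7.5%, against 4.78% of all genes and 9.01% of other microRNA genes. The groups did not overlap for 3 members, MIR520F, MIR519C and MIR517C, which is 7.5% against 8.76% of all genes. Both shares are near the background.

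MIR516B2 had the smallest p of the members here. It was at 2.72, 2.05 and 2.49 in control ERα(-) and at 2.57, 3.59 and 3.37 in shMOF ERα(-) arrays, which overlap. The difference was 0.76 ± 0.23 (SE, 95% interval 0.26 to 1.25, adjusted p = 0.953). In ERα(+) it was at 2.65, 2.32 and 2.41 in control and at 2.44, 2.71 and 2.62 in shMOF arrays, a difference of 0.13 ± 0.23.

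MIR520F was at 3.69, 3.49 and 3.93 in control ERα(-) and at 4.14, 4.04 and 4.12 in shMOF ERα(-) arrays, a difference of 0.40 ± 0.18. MIR519C, a member of the AAGUGCA family with miR-519a and miR-519b, was at 1.13, 1.09 and 1.06 against 1.33, 1.41 and 1.57, a difference of 0.34 ± 0.16. MIR517C was at 1.30, 1.41 and 1.32 against 1.5, 1.44 and 1.53, a difference of 0.15 ± 0.12. In these 3 genes every shMOF array was above every control array, and the adjusted p was 0.953 for each.

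The members with the smallest p among those lower in shMOF ERα(-) were MIR512-2 at -0.27 ± 0.15, MIR518A2 at -0.27 ± 0.15 and MIR519A2 at -0.44 ± 0.25. MIR519A2 was at 3.47, 2.93 and 3.21 in control ERα(-) and at 2.63, 3.11 and 2.55 in shMOF ERα(-) arrays, which overlap. Averaged over the 2 probe sets given its symbol, which may not cover the same locus, the difference was -0.11. In control ERα(+) the chosen probe set was at 2.74, 3.11 and 3.84, and in shMOF ERα(+) at 2.94, 2.82 and 3.22.

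Under ERα(+), MIR520A had the most negative fitted difference of any member between shMOF and control arrays, without passing adjustment. The difference was -1.26 ± 0.18 (SE, 95% interval -1.64 to -0.87). Its unadjusted p of 6.64e-06 (limma) ranked 1 of 14884 genes, with an adjusted p of 0.0988. Without control ERα(+) replicate 3, the array at 2.68, the difference was -1.48 ± 0.15 and the adjusted p 0.00292, and MIR520A was then the single gene called. Over the alternatives tried, its adjusted p ran from 0.00292 to 0.406.

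MIR520E differed by -0.50 ± 0.16 (95% interval -0.84 to -0.16, adjusted p = 0.223) and MIR520D by 0.75 ± 0.28 (0.16 to 1.34, adjusted p = 0.225) in the same comparison. MIR518A1 was at 2.12, 3.27 and 2.61 in control ERα(+) and at 1.86, 1.63 and 2.35 in shMOF ERα(+) arrays. These overlap, and the difference was -0.72 ± 0.27, or -0.42 without control ERα(+) replicate 2. MIR517B, of the miR-517 family, was at 3.30, 3.09 and 3.61 against 3.05, 2.82 and 2.99, a difference of -0.38 ± 0.19 with no overlap. The next members above 0 were MIR520F at 0.17 ± 0.18 and MIR518F at 0.13 ± 0.16. MIR520F was at 3.92, 3.41 and 3.95 in control and at 4.22, 3.92 and 3.64 in shMOF arrays, and its difference was -0.01 without control ERα(+) replicate 2.

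As a description of the whole cluster, an unadjusted p below 0.05 was seen for 4 members, 10%, against 18.7% of all genes and 14.4% of other microRNA genes. The groups did not overlap for 4 members (MIR520A, MIR520E, MIR517B and MIR520D), 10% against 26.2% of all genes. The median difference was -0.09 over the members and -0.04 over all genes, and 13 of 40 were above 0.

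Among control arrays, MIR520E was higher under ERα(+) than under ERα(-) on the fitted scale, without passing adjustment. The difference was 0.93 ± 0.16 (SE, 95% interval 0.60 to 1.27), and its unadjusted p of 4.10e-05 ranked 1 of 14884 genes. The adjusted p was 0.319 and ran from 0.0923 to 0.439 over the alternatives. MIR520A differed by 0.67 ± 0.18 (0.29 to 1.05) and MIR512-2 by -0.58 ± 0.15 (-0.90 to -0.27), both with an adjusted p of 0.333.

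MIR512-2, the first of the 40 members along the chromosome, was at 5.11, 5.04 and 4.60 in control ERα(-) and at 4.17, 4.30 and 4.53 in control ERα(+) arrays. In shMOF arrays it was at 4.53, 4.69 and 4.71 under ERα(-) and at 4.47, 4.49 and 4.35 under ERα(+). Every ERα(+) array was below every ERα(-) array within both the control and the shMOF cells, although the shMOF difference was smaller, -0.21 ± 0.15, and the difference of the differences was 0.38 ± 0.21 (adjusted p = 0.336).

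MIR517B was at 3.06, 2.98 and 2.29 in control ERα(-) arrays, all below its control ERα(+) arrays given above, a difference of 0.55 ± 0.19 that was 0.31 without control ERα(-) replicate 3. MIR519C was at 1.22, 1.94 and 1.45 in control ERα(+) arrays and differed by 0.44 ± 0.16, again without overlap. MIR522 was at 3.72, 3.16 and 2.95 in control ERα(-) and at 2.78, 3.07 and 2.65 in control ERα(+) arrays, which overlap, a difference of -0.44 ± 0.21 that was -0.22 without control ERα(-) replicate 1. MIR520H was at 4.26, 4.36 and 4.42 against 4.10, 4.24 and 4.07, a difference of -0.21 ± 0.13 with no overlap. No adjusted p among the members was below 0.319.

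An unadjusted p below 0.05 was seen for 5 members in this comparison, 12.5%, against 12.7% of all genes and 12.7% of other microRNA genes. The groups did not overlap for 6 members, 15% against 19.3% of all genes. The members' median difference was 0.06, with a range of -0.58 to 0.93 and 24 of 40 above 0, and the median over all genes was -0.0024. The members' shares were thus no higher than those of the array.

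Among shMOF arrays MIR520A was lower under ERα(+) than under ERα(-) in all 3 against all 3 arrays, by -0.83 ± 0.18 (95% interval -1.22 to -0.45), the second smallest p of all genes, but with an adjusted p of 0.746. MIR520E differed by 0.35 ± 0.16, with no overlap, or by 0.21 without shMOF ERα(+) replicate 3. MIR522 was at 3.51, 3.20 and 3.83 under ERα(-) and at 2.77, 3.11 and 2.58 under ERα(+), a difference of -0.69 ± 0.21 with no overlap.

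The related MIR520G and MIR520H were both lower. MIR520G was at 4.39, 4.26 and 4.39 under ERα(-) and at 3.74, 3.87 and 4.30 under ERα(+), a difference of -0.38 ± 0.15 with overlap. MIR520H was at 4.30, 4.22 and 4.34 against 3.78, 4.12 and 4.20, a difference of -0.25 ± 0.13 without overlap. In control arrays MIR520G had been at 4.44, 4.27 and 4.49 under ERα(-) and at 4.30, 4.13 and 4.05 under ERα(+).

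MIR515-1 was at 2.20, 2.33 and 2.38 under ERα(-) and at 2.82, 2.95 and 2.34 under ERα(+), a difference of 0.40 ± 0.15. MIR520C differed by 0.61 ± 0.27 and MIR516B2 by -0.59 ± 0.23. The groups of these 3 genes overlapped. The adjusted p was 0.746 for MIR515-1, MIR520C and MIR516B2, and no member's was lower.

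In this comparison 8 members, 20%, had an unadjusted p below 0.05, against 5.33% of all genes and 8.82% of other microRNA genes. The 8 were MIR520A, MIR522, MIR515-1, MIR520G, MIR516B2, MIR520C, MIR516B1 and MIR520E. They lay on both sides, 3 higher and 5 lower. The groups did not overlap for 5 members, 12.5% against 9.51% of all genes and 11.1% of other microRNA genes. The median difference was -0.05 over the members and -0.03 over all genes, with a range of -0.83 to 0.61.

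**Figure D4:**
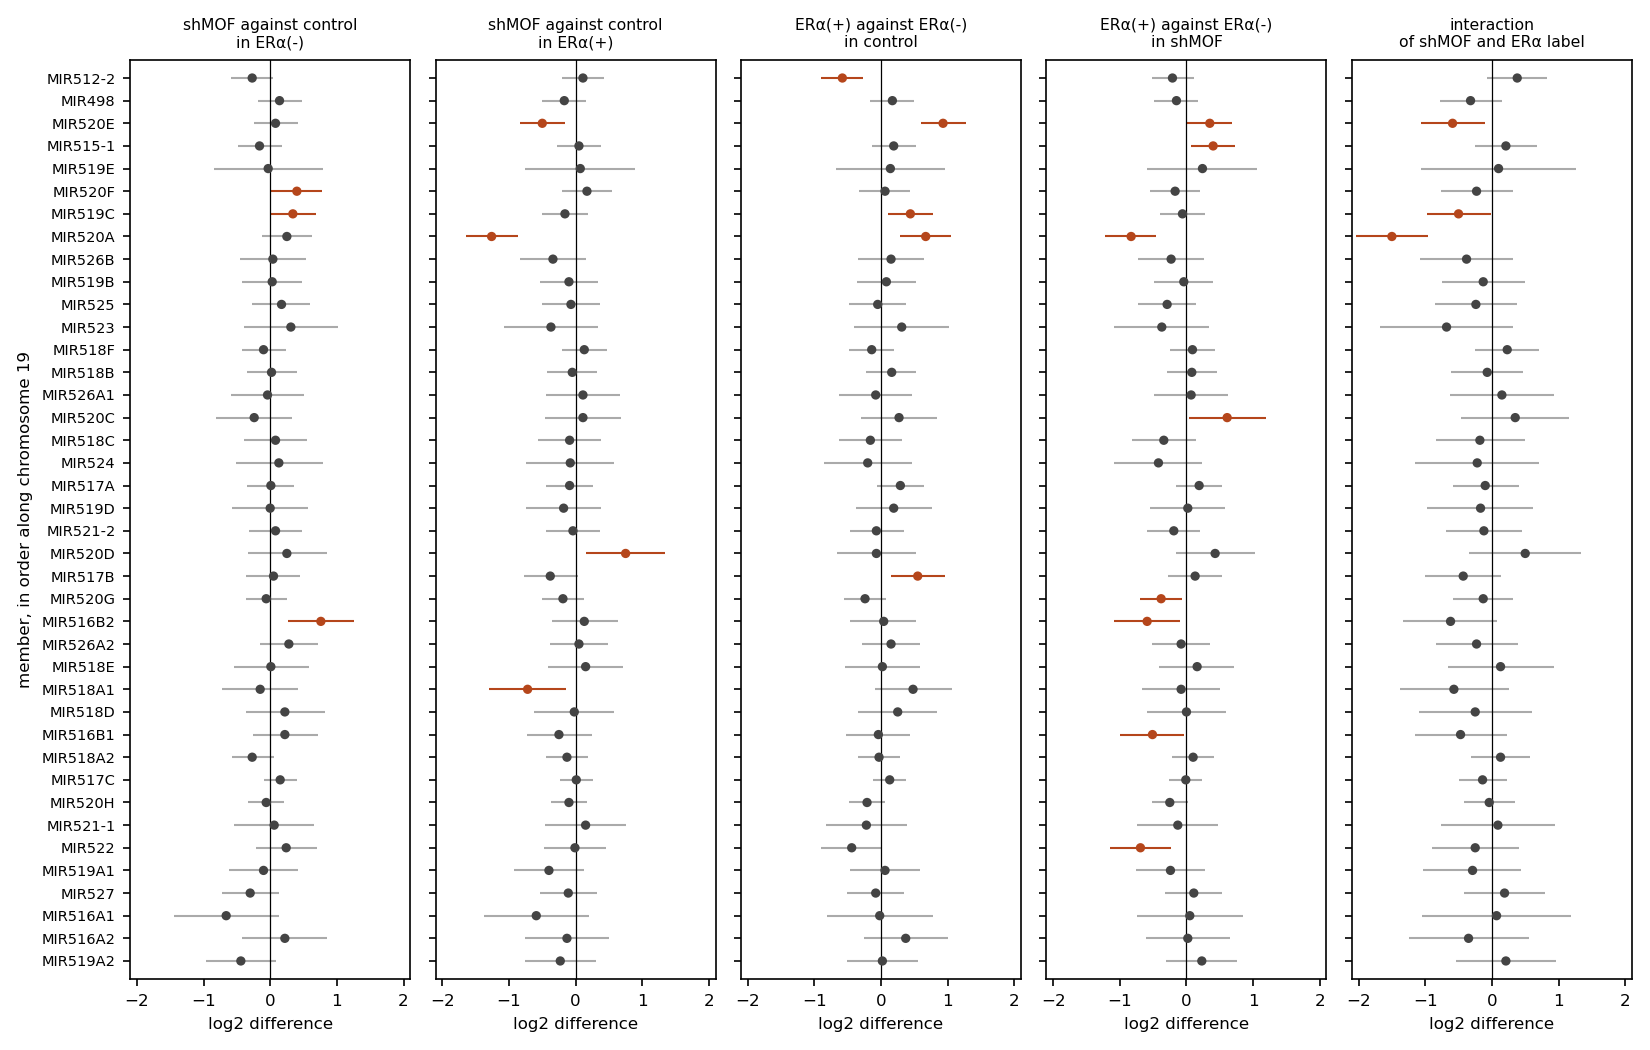
Log2 difference with its 95% interval (horizontal axes) for each of the 40 members (vertical axis) in each 2-group comparison and in the difference of the shMOF differences between ERα(+) and ERα(-). Orange marks an unadjusted p below 0.05; MIR520A spans from 0.67 to -1.26 across the 2-group panels while most members' intervals include 0.

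The difference of the shMOF differences, ERα(+) minus ERα(-), tests whether a member's shMOF difference depended on the ERα label. For MIR520A it was -1.5 ± 0.25 (SE, 95% interval -2.04 to -0.96), with an adjusted p of 0.094 (limma) and a rank of 6 of 14884 by p. Without control ERα(+) replicate 3 it was -1.73 ± 0.20 with an adjusted p of 0.0137. Without shMOF ERα(-) replicate 2 it was -1.55 ± 0.27 with an adjusted p of 0.0157, in a fit that called 570 genes. The next members were MIR520E at -0.59 ± 0.22 (adjusted p = 0.23) and MIR519C at -0.50 ± 0.22 (adjusted p = 0.265). On the other side were MIR512-2 at 0.38 ± 0.21 and MIR520D at 0.50 ± 0.39 (adjusted p = 0.505). The MIR520D value was 0.16 without shMOF ERα(-) replicate 1, 0.28 without control ERα(-) replicate 1 and 0.77 without shMOF ERα(-) replicate 3.

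An unadjusted p below 0.05 was seen for 3 members, 7.5%, in this test, against 18% of all genes and 13.8% of other microRNA genes. The median over the members was -0.16 and over all genes -0.03. The median half-width of the members' 95% intervals was 0.64, against 0.46 for all genes.

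Pairs of members had correlations spread around 0 from array to array. After each value was centred on the mean of its group, the 780 pairs of members had a median Pearson correlation of 0.0172 over the 12 arrays, with quartiles of -0.235 and 0.288. The 531996 pairs of other microRNA genes had a median of 0.00253 and quartiles of -0.262 and 0.268. Correlations above 0.5 made up 8.85% of member pairs and 9.1% of other pairs. All pairs share the same 12 arrays and their normalization, and the numbers are descriptive.

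These medians stayed near 0 at each level of sequence identity. The median was -0.00485 for the 125 pairs with less than 70% hairpin identity, 0.0594 for 285 pairs from 70% to 80%, 0.0217 for 238 pairs from 80% to 90%, and 0.0329 for the 18 pairs at or above 90%. MIR517A and MIR517C, with the same 5p strand and the same 3p seed, had the highest correlation of all member pairs at 0.927. MIR517A was at 1.65, 1.93, 1.85, then 1.78, 1.66, 2.01, then 1.92, 2.18, 2.20, and then 2.20, 1.64, 2.18 in the order of groups used above. MIR517C had 1.4, 1.54 and 1.47 in control ERα(+) and 1.61, 1.27 and 1.57 in shMOF ERα(+) arrays. Both genes dipped in shMOF ERα(+) replicate 2.

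MIR517B, whose mature strands equal those of MIR517A, correlated with MIR517A at 0.115 and with MIR517C at 0.203. MIR520G and MIR520H correlated at 0.62, and the 98.89% identical MIR516A1 and MIR516A2 at 0.273. Among the AAGUGCU genes, MIR520E and MIR520A correlated at -0.347, MIR520A and MIR520D at 0.485, and MIR520E and MIR520C at 0.0924. Without centring, so that differences between groups enter, these 3 were 0.287, -0.371 and 0.411. A shared seed was thus found both with and without correlated values.

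**Figure D5:**
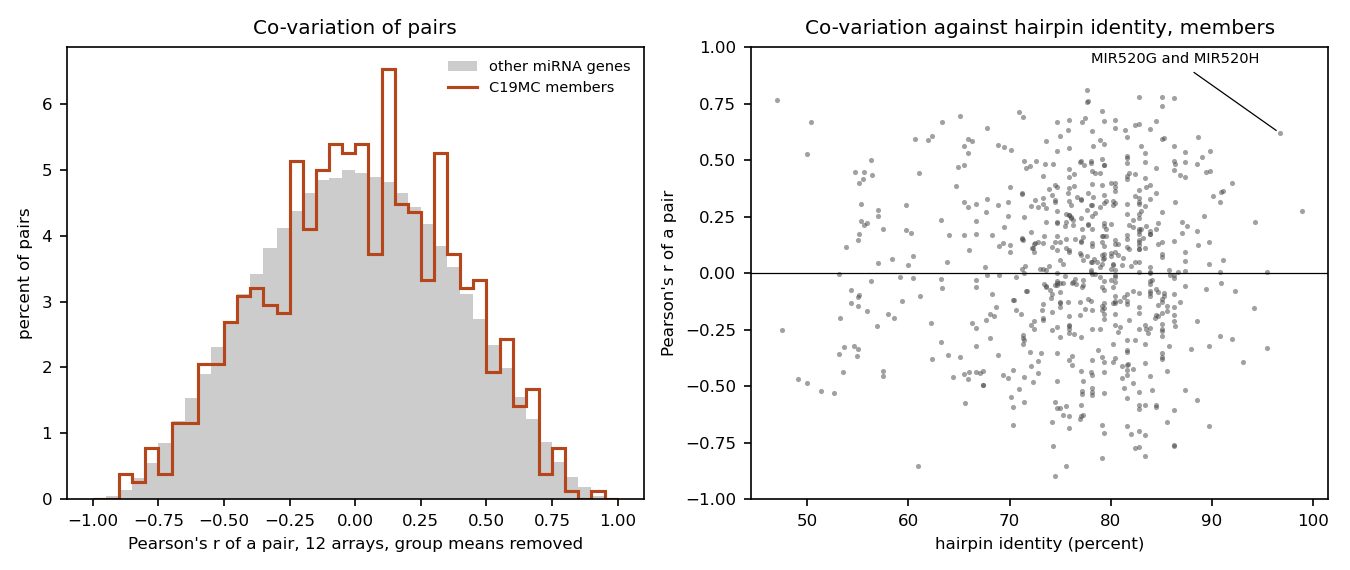
Left, distribution of the Pearson correlation between pairs of genes (horizontal axis) over 12 arrays centred on group means, for 780 pairs of cluster members and 531996 pairs of other microRNA genes. Right, correlation of member pairs (vertical axis) against hairpin identity in percent (horizontal axis). Both distributions centre near 0, and pairs at or above 90% identity have a median of 0.0329.

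Genes around the cluster and in its pathway gave no call either. The 3 measured C19MC genes outside the naming rule were at mean log2 levels of 3.91 (MIR1323), 2.24 (MIR1283-2) and 1.67 (MIR1283-1), and 0 of 3 had an unadjusted p below 0.05 in any comparison. In the adjacent miR-371 to miR-373 cluster, known from pluripotent stem cells, 3 of 4 genes were measured, at 5.45 (MIR371A), 4.02 (MIR373) and 2.66 (MIR372), and 0 of 3 passed that level. A list of the imprinted DLK1-MEG3 locus on chromosome 14, mostly microRNA genes of its placental cluster but also DLK1, RTL1, MEG3 and MEG9 and the nearby MIR342 and MIR345, had 57 of 60 genes measured with a median level of 3.08. In the order of the 5 comparisons above, 5, 7, 8, 5 and 6 of the 57 had an unadjusted p below 0.05 (limma). The shares of all genes were 4.78%, 18.7%, 12.7%, 5.33% and 18%. MIR136 of this list, at a percentile of 2.14, was at 2.29 ± 0.08 in control ERα(+) and 1.77 ± 0.09 in shMOF ERα(+) arrays. The difference was -0.52 ± 0.12 (adjusted p = 0.223, limma).

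Of 23 trophoblast markers, 10 were measured. Below the 25th percentile were 3 of them: the pregnancy glycoprotein genes PSG1 at 1.81 and PSG3 at 2.80, and GCM1, a regulator of syncytiotrophoblast formation, at 4.04. Between it and the median were the placental lactogen gene CSH1 at 4.54 and the transcription factor or cofactor genes GATA3 at 5.13, ELF5 at 5.24, GATA2 at 5.42 and VGLL1 at 5.42. TFAP2C at 6.68 and PEG10 at 7.98 were above the median. GCM1 differed by -0.40 between control ERα(+) and control ERα(-) arrays, where no adjusted p of the list was below 0.333 (limma). No marker of the list was called in any comparison.

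Among the 8 measured of 17 genes that process microRNAs or act with Argonaute, XPO5, which exports hairpin precursors from the nucleus, was at 8.70, and DGCR8, the partner of DROSHA in the first cut, at 6.51. The silencing scaffold genes TNRC6A and TNRC6B were at 7.68 and 7.60. TNRC6B differed by 0.33 between shMOF and control under ERα(+), the single unadjusted p below 0.05 among these genes over the 5 comparisons. That is 1 of 8 genes in a comparison where 18.7% of all genes passed the same level. The smallest adjusted p of the list there was 0.227 (limma). DROSHA, DICER1 and AGO2 were not analysed here.

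Reported targets of the cluster's microRNAs were measured for 8 of 15 genes. CD44 was at a mean of 7.93 and differed by 1.08 between control ERα(+) and control ERα(-) arrays, and by -0.78 between shMOF and control under ERα(+). These are the directions that MIR520A and MIR520E also had. MIR520C, the member reported as a regulator of CD44, differed by 0.27 ± 0.27 and 0.11 ± 0.27 (SE) in that order. MIR520D differed by -0.07 ± 0.28 and 0.75 ± 0.28. No relation between CD44 and these members was tested. The cell-cycle factor gene E2F1, at 7.59, differed by -0.34 between shMOF and control under ERα(+). In each of these comparisons 1 of the 8 targets had an unadjusted p below 0.05 (limma). The share of all genes was 12.7% between ERα labels in control and 18.7% for shMOF under ERα(+). The smallest adjusted p among the targets was 0.352 and 0.229 in that order. RELA, a subunit of NF-kappaB, was at 8.54. Of the protein-coding neighbours on chromosome 19, 4 of 10 were measured. MYADM, at 6.68, differed by 0.49 between ERα(+) and ERα(-) in control and by -0.45 between shMOF and control under ERα(+), and ZNF331, at 7.01, by -0.15 and 0.19. No adjusted p of these 4 genes was below 0.231 in either comparison (limma).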

How the data were processed

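Total RNA from 12 Ishikawa samples was labelled with biotin and hybridised to Affymetrix arrays. The deposited values are log2 intensities that the authors made with RMA in Affymetrix Expression Console 1.4.1, per the submitters' processing notes; how RMA was set is not given in the sources used here. RMA subtracts a background and quantile-normalizes the arrays. Differences of dim probe sets can be compressed in such values, which was not measured here. The table holds 53617 probe sets and no missing value. GEO's platform annotation gave 1 gene symbol to 16098 of them and none to 37519. Each of the 14884 symbols was represented by its brightest probe set on average over the arrays, and no filter on dim genes was applied.

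The members and the gene lists were chosen with earlier results of these data known. A mean for each of the 4 groups was fitted in R 4.3.3 with the lmFit and eBayes functions of limma 3.58.1 (8 residual and 5.60 prior degrees of freedom), and p-values were 2-sided and Benjamini-Hochberg adjusted over all 14884 genes, with a call at an adjusted p below 0.05. The fit was tested on simulated data. With 3 arrays per group, precision is limited by their number. Named with values were the 6 brightest and 4 dimmest members, the 3 members in each direction with the smallest p in each comparison of 2 groups, 2 in each direction for the interaction, KAT8 and ESR1, and from each other list up to 3 genes of highest mean and up to 2 of smallest p, shortened here, with DGCR8 and XPO5 always; MIR517A, MIR516A1, MIR516A2, MIR516B1 and the remaining trophoblast markers were named after their values were seen. Correlations between members were computed on values centred on group means. Alternatives were averaging a gene over its probe sets, filters on dim genes, fits on the compared groups alone, a replicate block and leaving out each array in turn. Further alternatives were a fit of every named probe set, a repeated quantile normalization, arrays shifted to a common median, and a prior variance that follows the mean level. Sequences are RefSeq's for GRCh38.p14, matched by gene identifier. No scan date or slide was used here, so batches could not be checked.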

Additional observations from a re-analysis of the deposited data

Results flagged for a closer look

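MIR520A differed between ERα(+) and ERα(-) in opposite directions in control and shMOF arrays, without overlap in either: all 3 control ERα(+) arrays were above all 3 control ERα(-) arrays, and all 3 shMOF ERα(+) arrays were below all 3 shMOF ERα(-) arrays. The difference of the differences was -1.5 ± 0.25 on the log2 scale (SE, n = 3 per group), with an adjusted p of 0.094 (limma), so it did not pass the threshold over all genes. All 12 values lie at log2 levels of 3.39 or lower, below the 25th percentile of the named genes, 4.22. The control groups were barely apart, with 2.683 in ERα(+) replicate 3 and 2.657 in ERα(-) replicate 1. Groups without overlap were common, 19.3% of all genes in the control comparison and 9.51% in the shMOF comparison. The share of all genes with opposite directions in both was not counted. Groups of 3 arrays are too small for the check for a single far array.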

How the results depend on the processing

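The number of genes called was 0 in each comparison and moved in few alternatives. Fits on the compared groups alone called 9 genes between ERα(+) and ERα(-) control arrays. Leaving out 1 array gave 0 to 5 genes for shMOF against control in ERα(-) (5 without shMOF ERα(-) replicate 2), 0 to 1 in ERα(+) (1 without control ERα(+) replicate 3), 0 to 11 between ERα labels in shMOF (11 without shMOF ERα(-) replicate 2), and 0 to 570 for the interaction (570 without shMOF ERα(-) replicate 2). Members called numbered 0 to 1 for shMOF against control in ERα(+) and for the interaction, the 1 being MIR520A, and 0 otherwise. The replicate block called 2 genes in the interaction and 0 members in all 5 comparisons. Deviations of same-numbered arrays correlated above 0.1 in 5 of 18 pairs (range -0.18 to 0.45), and the main fit did not pair them. Replicate 2 gave 0.45 between shMOF ERα(-) and shMOF ERα(+) and 0.38 between control ERα(+) and shMOF ERα(+). It gave 0.24 between shMOF ERα(-) and control ERα(+), and -0.18 to 0.07 with control ERα(-). Arrays with different numbers were not compared, so these values have no reference, and a factor shared by replicate number was not tested.

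Filtering at the 25th percentile left 5 members, whose median difference was -0.03 (against 0.06) between ERα labels in control, 0.08 (against -0.05) in shMOF and -0.07 (against -0.16) for the interaction. Filtering at the median left 0 members, so it gave no value. With all 40 members and no filter, leaving out 1 array gave medians from -0.0044 to 0.16 between ERα labels in control. They ran from -0.12 to 0.02 in shMOF and from -0.19 to -0.08 for the interaction. Averaging a gene over its probe sets put the members' median level at 2.79 (against 2.92). MIR520F in shMOF against control in ERα(+) was 0.17 with all arrays, ran from -0.01 to 0.31 with 1 array left out, and was -0.01 without control ERα(+) replicate 2. Of 392 values for single members under the alternatives, 388 kept their direction and side of the threshold, and the 13 for co-variation moved by less than 0.05. No member was called with all arrays, so keeping its side meant staying uncalled. The count of 388 therefore does not measure how far the values moved. The cause of these moves was not tested, beyond the smaller number of members or arrays. Signal over background was not measured here, so no member is shown to be above background, and 3 arrays per group leave wide intervals.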
